A study of Homo sapiens with 6 samples.

Results

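The genes of the death receptors and the caspase-8 complex were followed in HCT116 cells, a human colorectal cancer line, after knockdown of POU2F1. They were taken by symbol from the annotated rows of the expression tables: TNFRSF10A, TNFRSF10B, TNFRSF10D, FAS, TNFRSF1A, FADD, TRADD, CASP8, CASP10 and CFLAR, 10 genes of 20474 annotated ones, each present as 1 row. Both groups were plates of the same line sampled 48 h after transfection, 3 libraries with a control siRNA (sicontrol, labelled as wild type) and 3 with an siRNA to POU2F1 (siPOU2F1, labelled as POU2F1 knockdown). Each library was polyA RNA from a directional kit. The deposited value is FPKM, fragments scaled to transcript length and to the number of mapped fragments. Levels can be compared between genes only roughly, since the annotation behind those lengths is not stated. Whether the 3 libraries of a group were separate cultures is not stated, so the p-values measure only how these libraries vary, and that variation may be technical. POU2F1 encodes OCT1, a transcription factor that binds the octamer sequence in promoters and enhancers.

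Death receptors are members of the TNF receptor family that carry a death domain inside the cell. TRAIL binds TNFRSF10A (DR4) and TNFRSF10B (DR5), Fas ligand binds FAS, and in each case the trimerised receptor recruits the adaptor FADD, which in turn gathers caspase-8 and its relative caspase-10 so that they cut and activate themselves. CFLAR (c-FLIP) joins the same assembly but lacks caspase activity, and TNFRSF10D is a TRAIL receptor with a truncated death domain that does not pass the signal on. TNFRSF1A, the TNF receptor, first recruits TRADD and RIPK1 to a membrane complex that drives NF-kB, and a cytoplasmic complex with FADD and caspase-8 can form afterwards.

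CFLAR, CASP10 and CASP8 stand side by side on chromosome 2 in that order, all on the plus strand (GRCh38). CFLAR spans 201116104 to 201176687, CASP10 spans 201182881 to 201229406 and CASP8 spans 201233443 to 201287711. They cover 171608 bases with gaps of 6193 and 4036 bases, and no other protein-coding gene lies in that span. The sequence around the first listed start site of CFLAR and of CASP8 is shown. The choice was made because this regulator and this initiator of the same complex lay on opposite sides of the controls in 1 knockdown library. Each line is 300 bases from RefSeq (GRCh38.p14, plus strand), 250 before and 50 after the annotated start, at chr2:201118466-201118765 for CFLAR and chr2:201233213-201233512 for CASP8. Capitals mark the GC box GGGCGG on either strand, a common promoter element.
CFLAR: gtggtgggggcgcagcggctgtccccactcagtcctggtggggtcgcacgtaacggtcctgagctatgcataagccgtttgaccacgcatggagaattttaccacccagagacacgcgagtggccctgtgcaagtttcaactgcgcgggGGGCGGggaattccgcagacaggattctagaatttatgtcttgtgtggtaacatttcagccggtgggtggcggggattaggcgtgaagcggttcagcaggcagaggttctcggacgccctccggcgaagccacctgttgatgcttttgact
CASP8: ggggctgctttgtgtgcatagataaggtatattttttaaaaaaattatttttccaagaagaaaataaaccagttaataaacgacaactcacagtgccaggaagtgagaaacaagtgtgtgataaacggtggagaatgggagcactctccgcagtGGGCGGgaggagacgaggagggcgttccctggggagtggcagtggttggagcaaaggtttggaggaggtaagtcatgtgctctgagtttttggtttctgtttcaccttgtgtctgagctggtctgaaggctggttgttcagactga

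The octamer ATGCAAAT, the textbook binding sequence of the POU2F1 protein, was searched on both strands in the start-site windows of the RefSeq table used here. Among the 10 genes, 5 were searched, in 12 windows (4 of CFLAR, 3 each of CASP8 and FAS, 1 each of FADD and TNFRSF1A). Of these windows 0 held the octamer. No window of TNFRSF10A, TNFRSF10B, TNFRSF10D, TRADD or CASP10 was searched, so the counts say nothing about their start sites. Over all genes 1.77% of 35116 such windows held it. The shorter core ATGCAAA, contained in the octamer, was likewise in 0 of the 12 and in 4.46% of all windows. The GC box was in 1 copy in each of the windows shown, and in 45.0% of all windows. A window of this size holds only the start of a gene, so these counts describe the letters there and nothing further away.

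Sequence words in the 3′ UTR were also counted. An earlier search of these same fold changes had picked AACTGCA and AGAATGA as commoner in genes with lower expression in siPOU2F1, so their presence is a description only. Of the 10 genes, 1 held AACTGCA (CASP10, in 2 copies) and 0 held AGAATGA, against 12.4% and 14.9% of 11518 tested genes. CFLAR had neither in a 3′ UTR of 12714 bases, nor did TNFRSF10B in 2538 bases. Both CASP10 copies lay in exon 10 of 10, the last one, with the word in capitals and 7 bases on each side, at chr2:201219222-201219242 for the first and chr2:201221092-201221112 for the second (GRCh38, plus strand, GENCODE release 29).
CASP10 first site: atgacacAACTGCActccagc
CASP10 second site: cggttgtAACTGCAacagaaa

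The knockdown itself was present in every siPOU2F1 library, and 1 of those libraries stood apart from the others. POU2F1 measured between 3.60 and 4.26 FPKM in sicontrol and between 1.69 and 1.87 FPKM in siPOU2F1, a mean of 44.0% of control (exact two-sided permutation test, p = 0.1, the smallest that 3 libraries against 3 allow). Its log2 difference was -0.99 ± 0.14 (SE; limma, adjusted p = 0.0333), and the adjusted p was between 0.114 and 0.222 when any 1 library but siPOU2F1 replicate 3 was dropped. Over all tested genes siPOU2F1 replicate 3 correlated at 0.977 with sicontrol replicate 2 but at 0.946 and 0.948 with the other siPOU2F1 libraries, which correlated with each other at 0.989. These correlations are across genes, which are not independent replicates. Results are therefore given with and without siPOU2F1 replicate 3. That library was picked from these same values, so calls and p-values without it are descriptions and not independent tests. The epithelial markers EPCAM, CDH1, KRT8, KRT18 and KRT19 were present in all libraries, whereas KRT20, CDX1 and CEACAM5 were under 1 FPKM in all. Of the other cell types, 2 of 7 fibroblast markers (COL3A1 and DCN) and 1 of 7 immune markers (PTPRC) were listed at 0 in every library. The summed fibroblast markers ranged from 2.17 to 2.72 FPKM in sicontrol and 1.88 to 3.69 FPKM in siPOU2F1, nearly all of it COL1A1. Immune markers summed to 6.34 to 8.21 FPKM and 7.02 to 8.17 FPKM, most of it CD68, and endothelial markers stayed below 1 FPKM. Epithelial markers summed to 2710 to 3630 FPKM in sicontrol and 3740 to 5170 FPKM in siPOU2F1, most of it KRT8, KRT18 and KRT19. Those 3 stood at 197%, 147% and 115% of control, EPCAM and CDH1 at 101% and 108%, and VIL1 and CDX2 at 215% and 118%. KRT8 and KRT18 were not called (adjusted p = 0.149 and 0.087) but were without siPOU2F1 replicate 3 (limma, adjusted p = 0.0147 and 0.0138). The part of these markers in the results below was not tested. In bulk RNA, fewer cells of one kind and less RNA per cell cannot be told apart.

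All 10 genes were expressed above the minimum mean of 1 FPKM. In sicontrol TNFRSF10B was the highest at 76.5 ± 14.7 FPKM (SD, n = 3), above 95.8% of annotated genes. TNFRSF10D (24.4 ± 0.554 FPKM), TNFRSF1A (23.4 ± 0.542 FPKM), FADD (20.6 ± 3.17 FPKM), TNFRSF10A (18.2 ± 4.32 FPKM), CASP8 (17.9 ± 0.819 FPKM) and CFLAR (17.3 ± 0.261 FPKM) followed. Below them came FAS at 10.4 ± 0.34 FPKM, TRADD at 9.36 ± 1.67 FPKM and CASP10 at 1.72 ± 0.311 FPKM. Among neighbours in this order the sicontrol libraries did not overlap between TNFRSF10B and TNFRSF10D, between TNFRSF1A and FADD, between CFLAR and FAS, or between TRADD and CASP10. The other neighbouring pairs overlapped and cannot be ranked beyond their spread. In siPOU2F1 TNFRSF10B stayed the highest (42.7 ± 5.22 FPKM) and CASP10 the lowest (1.36 ± 0.32 FPKM). The gap between TNFRSF1A and FADD did not hold there, since their libraries overlapped.

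**Figure D1:**
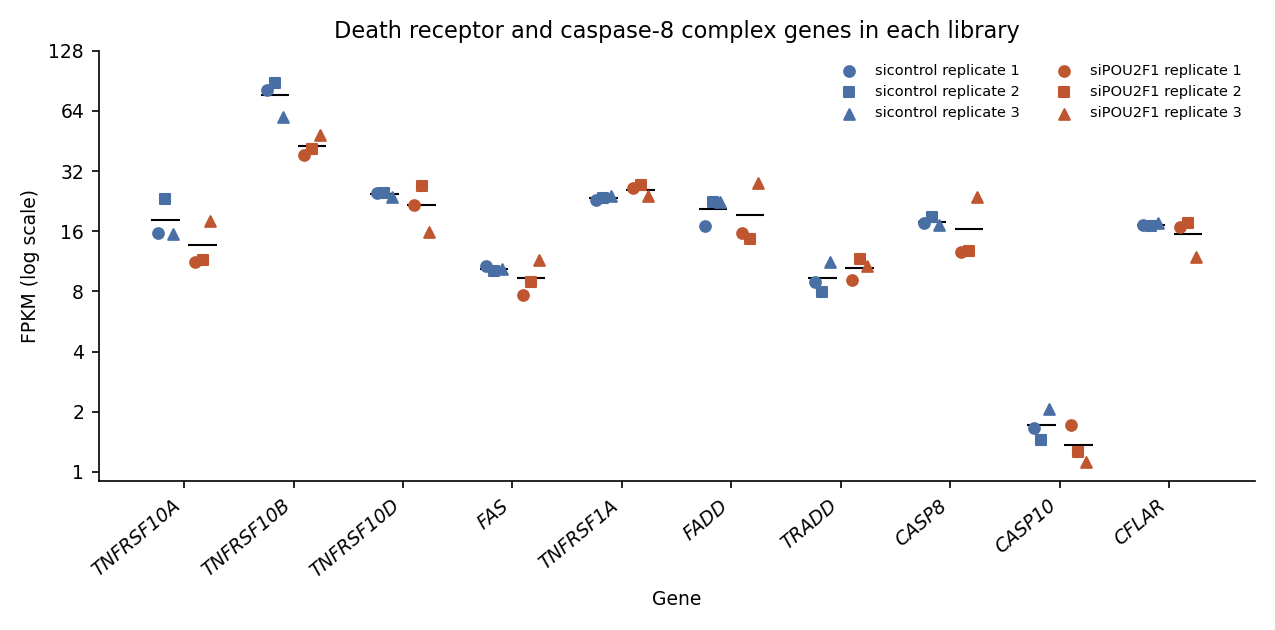
FPKM of the 10 genes on a log scale, 1 point per library (blue, sicontrol; orange, siPOU2F1; circle, square and triangle for replicates 1, 2 and 3) with a line at each group mean. TNFRSF10B is highest in every library, and in FAS, FADD and CASP8 the orange triangle lies above every other point.

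None of the 10 genes was called changed between the groups, where a call is an adjusted p under 0.05 (limma on log2(FPKM + 0.5), Benjamini-Hochberg over 11831 tested genes). Over all tested genes 147 were called, which is 1.24%. At an unadjusted p under 0.05 there was 1 of the 10, TNFRSF10B, against 18.1% of all tested genes. The groups did not overlap for 2 of the 10, TNFRSF10B and TNFRSF1A, against 23.4% of all tested genes. Differences below are log2 fold changes, siPOU2F1 minus sicontrol, on the log2(FPKM + 0.5) scale, which understates changes of low genes. Of the 10, 8 had a negative and 2 a positive value, with a median of -0.18, beside a median of -0.01 and 51.5% negative over all tested genes.

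The TRAIL receptor TNFRSF10B came closest to a call. TNFRSF10A, TNFRSF10B and TNFRSF10D are neighbours on the minus strand of chromosome 8 (GRCh38), TNFRSF10B at 23020133 to 23069179, TNFRSF10D at 23135588 to 23164030 and TNFRSF10A at 23190452 to 23225126. TNFRSF10B stood at 81.5, 87.9 and 59.95 FPKM in controls 1, 2 and 3 and at 38.4, 41.3 and 48.5 FPKM in knockdown libraries 1, 2 and 3. All 3 siPOU2F1 libraries lay below all 3 sicontrol libraries, and the mean was 55.9% of control. The log2 difference came to -0.82 ± 0.17 (SE; 95% interval -1.22 to -0.42; limma, adjusted p = 0.0744). Without siPOU2F1 replicate 3 it was -0.91 and called (adjusted p = 0.0145), and dropping each of the remaining 5 libraries in turn gave adjusted p-values between 0.0887 and 0.308, with differences from -0.98 to -0.71 when each of the 6 was dropped in turn. TNFRSF10B was thus the only one of the 10 genes that was lower than every control in all 3 knockdown libraries.

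TNFRSF10A, the other signalling TRAIL receptor, was lower in only 2 of the libraries. Controls 1, 2 and 3 stood at 15.8, 23.1 and 15.6 FPKM and knockdown libraries 1, 2 and 3 at 11.2, 11.4 and 18.1 FPKM. Replicate 3 of siPOU2F1 lay inside the control range, and sicontrol replicate 2 was itself high. The difference came to -0.42 ± 0.23 (SE; 95% interval -0.97 to 0.14; limma, adjusted p = 0.371). Without siPOU2F1 replicate 3 it was -0.63 and passed the threshold narrowly (adjusted p = 0.0466). On the opposite strand TNFRSF10A-AS1 and AC100861.1, not used here, overlap 7.59% and 9.01% of its exonic bases.

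The decoy receptor TNFRSF10D varied in another way. It stood at 24.7, 24.8 and 23.8 FPKM in controls 1, 2 and 3, a narrow range, and at 21.7, 27.1 and 15.9 FPKM in knockdown libraries 1, 2 and 3. Of the siPOU2F1 libraries 1 was above all controls and 2 were below them, with replicate 3 the lowest of the 6. The difference came to -0.21 ± 0.19 (SE, limma, adjusted p = 0.55), and -0.01 without siPOU2F1 replicate 3. No window of 50 bases of the transcripts of TNFRSF10A, TNFRSF10B or TNFRSF10D occurred in a transcript of another TNFRSF10 gene. TNFRSF10C, the remaining decoy of that family, was under 1 FPKM in every library.

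FAS, the receptor of Fas ligand on chromosome 10 (88990582 to 89015785, plus strand), stood at 10.8, 10.1 and 10.4 FPKM in controls 1, 2 and 3 and at 7.67, 8.92 and 11.4 FPKM in knockdown libraries 1, 2 and 3. Replicates 1 and 2 of siPOU2F1 were below all controls and replicate 3 was above all of them. The difference of -0.16 ± 0.16 (SE) was not called (95% interval -0.54 to 0.21; limma, adjusted p = 0.577), nor was -0.31 without siPOU2F1 replicate 3 (adjusted p = 0.0867). ACTA2 on the opposite strand shares 8.94% of the exonic bases of FAS and measured between 2.98 and 3.52 FPKM. The strand setting of the counting is not given in the sources used here.

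TNFRSF1A, the TNF receptor, had the smallest SE of the receptors. It is encoded on chromosome 12 (6328757 to 6342114, minus strand). It stood at 22.8, 23.5 and 23.9 FPKM in controls 1, 2 and 3 and at 26.4, 27.2 and 23.9 FPKM in knockdown libraries 1, 2 and 3. The groups did not overlap, but siPOU2F1 replicate 3 exceeded the highest control only in the second decimal. The difference came to 0.14 ± 0.10 (SE; 95% interval -0.10 to 0.37; limma, adjusted p = 0.471), so a rise beyond 0.37 on this scale lies outside the interval.

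FADD, which links the receptors to caspase-8 and lies on chromosome 11 (70203163 to 70207390, plus strand), stood at 17.0, 22.5 and 22.5 FPKM in controls 1, 2 and 3 and at 15.7, 14.6 and 27.7 FPKM in knockdown libraries 1, 2 and 3. Replicates 1 and 2 of siPOU2F1 were the lowest of the 6 libraries and replicate 3 the highest. The difference came to -0.14 ± 0.25 (SE, limma, adjusted p = 0.781), and -0.42 without siPOU2F1 replicate 3 (adjusted p = 0.0781). An antisense transcript, AP000879.1, covers 54.9% of the exonic bases of FADD and is not used here, so reads of the pair may not be separated.

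TRADD, the adaptor of the TNF receptor on chromosome 16 (67154180 to 67160298, minus strand), stood at 8.96, 7.92 and 11.2 FPKM in controls 1, 2 and 3 and at 9.14, 11.6 and 10.7 FPKM in knockdown libraries 1, 2 and 3. The groups overlapped. Its difference came to 0.16 ± 0.16 (SE; 95% interval -0.22 to 0.55; limma, adjusted p = 0.593), and 0.15 without siPOU2F1 replicate 3. FBXL8 on the opposite strand shares 4.91% of its exonic bases, at 4.35 to 6.55 FPKM.

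CASP8, the initiator caspase of the complex, had tight controls and a split knockdown group. It stood at 17.6, 18.8 and 17.2 FPKM in controls 1, 2 and 3 and at 12.6, 12.8 and 23.8 FPKM in knockdown libraries 1, 2 and 3. Replicates 1 and 2 of siPOU2F1 were below every control and replicate 3 was above every control. The difference over all libraries came to -0.18 ± 0.24 (SE; 95% interval -0.76 to 0.39; limma, adjusted p = 0.686). Without siPOU2F1 replicate 3 it was -0.48 ± 0.10 (SE) and was called (adjusted p = 0.0197).

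CFLAR, the regulator of caspase-8, lies on the other side of CASP10. It stood at 17.2, 17.0 and 17.5 FPKM in controls 1, 2 and 3 and at 16.8, 17.5 and 11.9 FPKM in knockdown libraries 1, 2 and 3. Replicate 3 of siPOU2F1 was low, and the other libraries all lay between 16.8 and 17.5 FPKM. The difference came to -0.18 ± 0.16 (SE, limma, adjusted p = 0.554), and -0.01 without that library (95% interval -0.23 to 0.22). Of the 50-base windows of its transcript 4.99% also occur in transcripts of other genes, the largest share among the 10 genes. On the opposite strand CFLAR-AS1 and the pseudogene IMPDH1P10 overlap 3.45% and 6.6% of its exonic bases. On the same strand the noncoding AC007283.1 overlaps 1.975% of them.

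CASP10, the related initiator caspase between them, was low throughout. It stood at 1.67, 1.44 and 2.05 FPKM in controls 1, 2 and 3 and at 1.72, 1.26 and 1.11 FPKM in knockdown libraries 1, 2 and 3. The groups overlapped, with siPOU2F1 replicate 3 the lowest. Its difference came to -0.26 ± 0.20 (SE, limma, adjusted p = 0.503), and -0.16 without siPOU2F1 replicate 3.

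**Figure D2:**
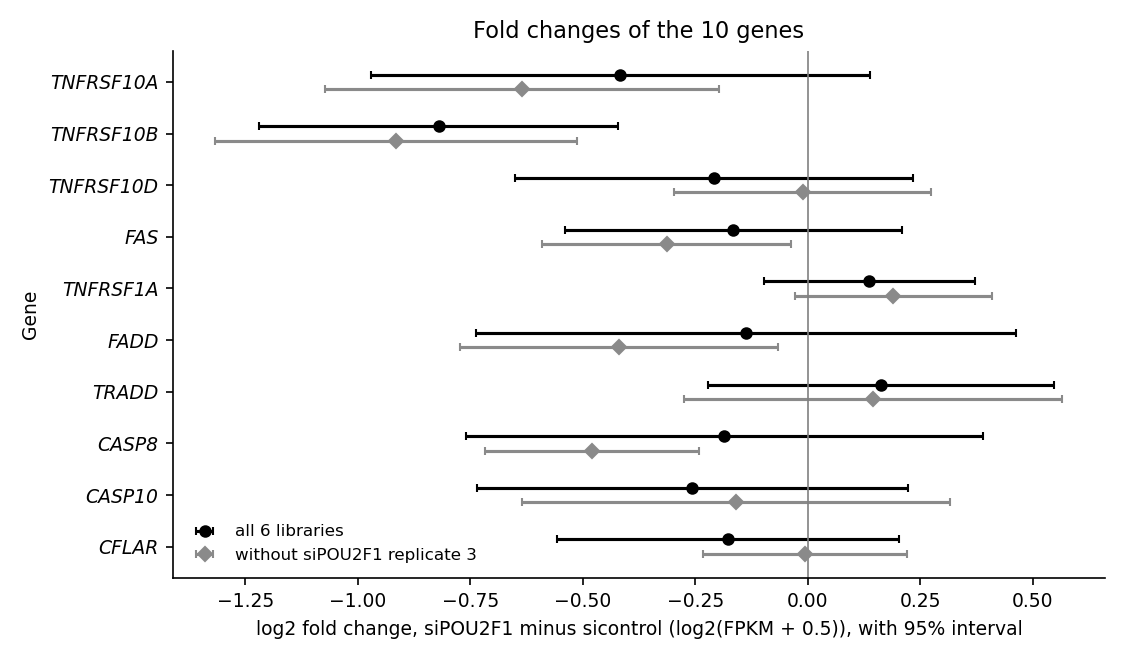
Log2 fold change of each gene, siPOU2F1 minus sicontrol on the log2(FPKM + 0.5) scale, with its 95% interval from limma, over all 6 libraries (black circles) and without siPOU2F1 replicate 3 (grey diamonds). With all libraries only the interval of TNFRSF10B, -1.22 to -0.42, leaves out 0.

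The 10 genes divided by what siPOU2F1 replicate 3 did, a grouping made after the values were seen and given as a description with no test. CASP8, FAS and FADD were below every control in siPOU2F1 replicates 1 and 2 and above every control in replicate 3, a pattern held by 9.34% of all tested genes. The same 3 genes had siPOU2F1 replicate 3 as the highest of the 6 libraries, as did 23.6% of all tested genes. CFLAR, CASP10 and TNFRSF10D had it as the lowest, as did 13.5% of all tested genes. Expressed as deviations from the control mean on the log2 scale, siPOU2F1 replicates 1 to 3 were at -0.49, -0.47 and 0.41 for CASP8, at -0.37, -0.47 and 0.43 for FADD and at -0.03, 0.02 and -0.52 for CFLAR. For TNFRSF10B the deviations were -0.97, -0.86 and -0.63. The quartiles of all tested genes were -0.36 and 0.25 in siPOU2F1 replicate 1, -0.35 and 0.27 in replicate 2 and -0.16 and 0.23 in replicate 3. POU2F1 was as low in replicate 3 as in the others, at 1.73 FPKM.

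**Figure D3:**
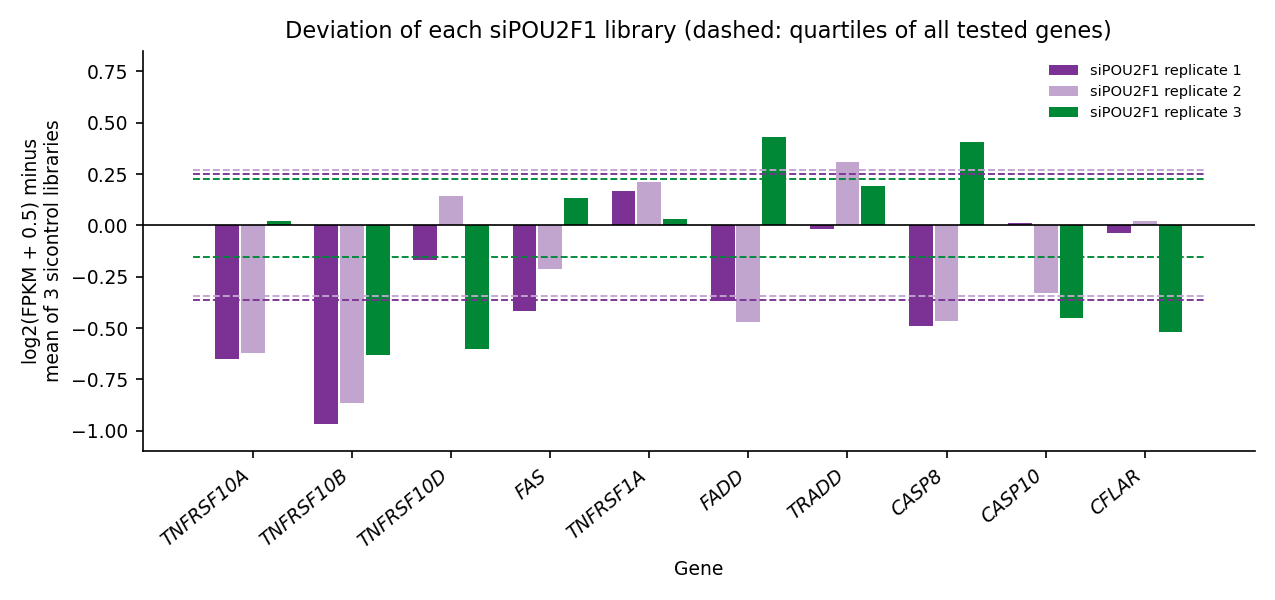
Bars give log2(FPKM + 0.5) in each siPOU2F1 library minus the mean of the 3 sicontrol libraries, for each of the 10 genes, and dashed lines of the same colour give the quartiles of all tested genes in that library. TNFRSF10B is the gene with all 3 bars beyond the lower quartile lines, and the green bar of replicate 3 lies above 0 (0.13 to 0.43) where replicates 1 and 2 point down in FAS, FADD and CASP8.

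When siPOU2F1 replicate 3 was left out, 3 of the 10 genes were called lower (TNFRSF10A, TNFRSF10B and CASP8) and 0 were called higher. In that fit 15.8% of 11814 tested genes were called lower and 9.48% higher, so the count among the 10 has to be read against a large background. The fit rests on 2 knockdown libraries, and the library left out was picked from these same values.

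The balance of initiator and inhibitor proteins is known to set how the complex responds. Ratios of FPKM values, which concern RNA only and do not separate isoforms, were therefore taken within each library, with no test. CFLAR to CASP8 was 0.978, 0.904 and 1.02 in controls 1, 2 and 3 and 1.34, 1.37 and 0.499 in knockdown libraries 1, 2 and 3. The control ratios lay near equality, whereas the knockdown libraries lay above all controls in replicates 1 and 2 and below them in replicate 3. TNFRSF10A plus TNFRSF10B to the decoy TNFRSF10D was 3.93, 4.48 and 3.17 in sicontrol and 2.29, 1.95 and 4.18 in siPOU2F1, so replicates 1 and 2 were again below all controls and replicate 3 was not. TNFRSF10B to TNFRSF10A was 5.17, 3.80 and 3.85 in sicontrol and 3.43, 3.61 and 2.68 in siPOU2F1, where all 3 knockdown libraries lay below all controls. CASP8 to CASP10 was 10.6, 13.0 and 8.38 in sicontrol and 7.29, 10.2 and 21.4 in siPOU2F1, and the groups overlapped.

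**Figure D4:**
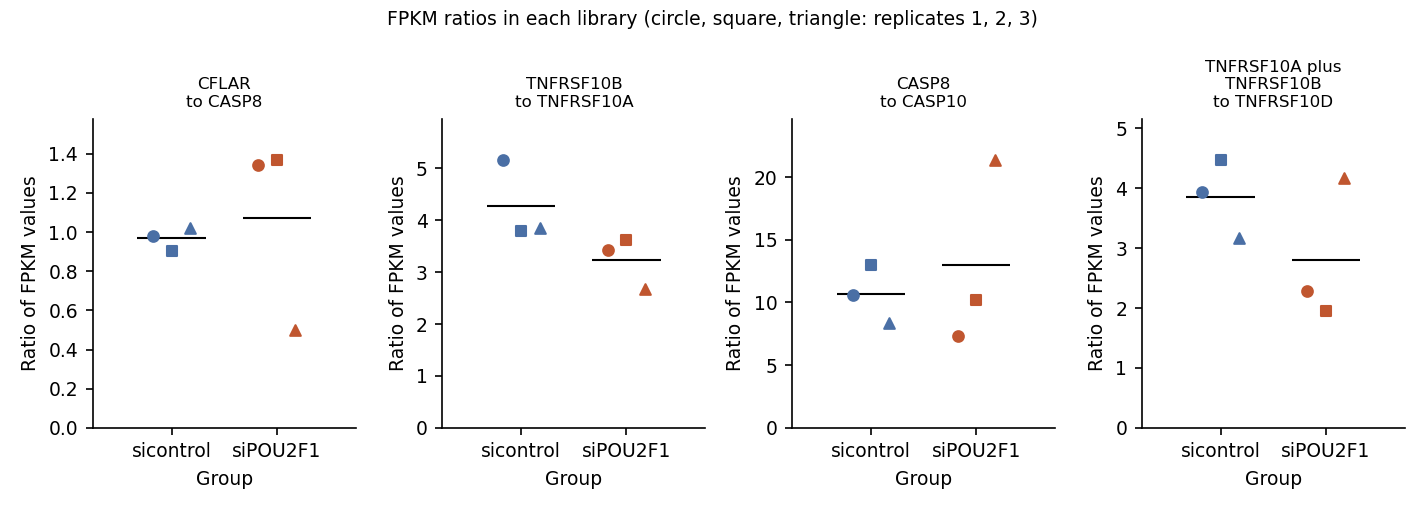
Ratios of FPKM values within each library, from 0, 1 panel per ratio, with sicontrol on the left and siPOU2F1 on the right and a line at each group mean. The triangle of siPOU2F1 replicate 3 is lowest for CFLAR to CASP8 (0.499) and highest for CASP8 to CASP10 (21.4).

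The genes whose profiles over the 6 libraries lay nearest to TNFRSF10B and to CASP8 were taken by the root mean square difference of centred log2 values, among 11830 other tested genes. Nearest to TNFRSF10B were CDK17 (0.063), IL6R (0.070) and LAT (0.072). Nearest to CASP8 were TSSC4 (0.043), IP6K1 (0.044) and FOXL2 (0.045). By the same measure FADD was at 0.13 from CASP8 and ranked 422, FAS at 0.17 ranked 963, and CFLAR at 0.47 ranked 8848. The grouping by siPOU2F1 replicate 3 used the same values, so these ranks lend it no separate support. TNFRSF10A was at 0.28 from TNFRSF10B and ranked 966.

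The rest of the pathway was described from lists of its parts, with calls over all tested genes. The lists were chosen with earlier results of these data known, so their counts are descriptions. Beside them, 1.24% of all tested genes were called in either direction. Among 7 ligands 4 were tested, and 1 was lower and 0 higher. TNFSF15, the ligand TL1A, fell (log2 difference -1.30; limma, adjusted p = 0.0451), with group means of 1.76 ± 0.197 FPKM in controls and 0.428 ± 0.172 FPKM after knockdown (SD, n = 3). TNFSF15 met the minimum mean of 1 FPKM only through the controls, so its call is given as a description. TNFSF12, the ligand TWEAK, had 0.23 and was not called (adjusted p = 0.599). TNFSF10, which encodes TRAIL, measured 8.05, 4.28 and 9.11 FPKM in sicontrol and 13.7, 11.4 and 4.45 FPKM in siPOU2F1, with the groups overlapping (limma, adjusted p = 0.66). FASLG lay between 0.785 and 1.64 FPKM, and TNF, LTA and LTB averaged under 1 FPKM. TNFSF10, FASLG, TNF, LTA and LTB were named after their values were seen.

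Among 11 other TNF receptor family members 10 were tested, and 1 was lower and 0 higher, with a median log2 fold change of 0.05. The list does not hold the whole family. Outside it TNFRSF9 was called lower (log2 difference -1.07, limma, adjusted p = 0.0333). TNFRSF14 (-0.26, adjusted p = 0.484) and TNFRSF18 (0.14, adjusted p = 0.897), also outside it, were not called (limma). These genes were named after their values were seen, and the rest of the family is not given. EDAR, the ectodysplasin receptor, which also has a death domain, fell (log2 difference -0.84; limma, adjusted p = 0.0486), with group means of 37.5 ± 6.84 FPKM in controls and 20.5 ± 0.516 FPKM after knockdown (SD, n = 3). TNFRSF11B, the secreted decoy osteoprotegerin that binds TRAIL as well as RANKL, measured 5.04, 7.81 and 5.17 FPKM in sicontrol and 12.7, 16.3 and 32.3 FPKM in siPOU2F1. All 3 knockdown libraries were above all controls, but its difference of 1.60 ± 0.34 (SE) was not called (limma, adjusted p = 0.0821).

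Among 24 genes of the membrane complex of the TNF receptor and its ubiquitin editing, all were tested, 1 was lower and 0 higher, and 15 had a negative fold change (median -0.15). TNIP1, a partner of the ubiquitin-editing protein A20, fell (log2 difference -0.60; limma, adjusted p = 0.0361), with group means of 148 ± 8.03 FPKM in controls and 97.3 ± 4.29 FPKM after knockdown (SD, n = 3). TRAF1, a signalling adaptor that is itself induced by NF-kB, had -1.80 and was not called (adjusted p = 0.0777). RIPK1, the kinase that TRADD works with, is given because of that role and was chosen after its values were seen. It read 7.29, 9.66 and 6.65 FPKM in sicontrol against 3.00, 2.85 and 9.10 FPKM in siPOU2F1, low in knockdown libraries 1 and 2 and inside the control range in the other (-0.78; limma, adjusted p = 0.348).

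Among 15 modifiers of the death-inducing signalling complex, 2 were lower and 0 higher, with a median of 0.03. PEA15, a death effector domain protein that binds FADD and caspase-8 and blocks their assembly, measured 66.9, 67.9 and 62.7 FPKM in sicontrol and 34.3, 33.3 and 37.0 FPKM in siPOU2F1. It fell to 52.9% of control, and the groups did not overlap, siPOU2F1 replicate 3 included (-0.91 ± 0.09, SE; limma, adjusted p = 0.015). HIPK3, a kinase reported to bind FADD, fell (log2 difference -1.48; limma, adjusted p = 0.0281), with group means of 10.9 ± 1.96 FPKM in controls and 3.60 ± 0.793 FPKM after knockdown (SD, n = 3).

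Of the 5 necroptosis genes 0 were called (limma; 0 also at an unadjusted p under 0.05), with MLKL, the membrane-permeabilising pseudokinase, at -0.28 (adjusted p = 0.453) and PGAM5, a mitochondrial phosphatase, at 0.18 (0.517).

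The calls of the 5 lower genes in these lists depended on the libraries and the settings. With siPOU2F1 replicate 3 kept, dropping each of the remaining 5 libraries in turn gave adjusted p-values between 0.0968 and 0.224 for EDAR, 0.115 and 0.236 for TNIP1, 0.075 and 0.115 for PEA15 and 0.0844 and 0.185 for HIPK3 (limma). TNFSF15 gave 0.15 to 0.196 in 3 of these fits and averaged under 1 FPKM, so was not tested, without sicontrol replicate 1 or 3. With no minimum mean the adjusted p was 0.0527 for TNFSF15, 0.0756 for EDAR, 0.0508 for TNIP1 and 0.0547 for HIPK3, while PEA15 kept its call. TNFSF15 also missed the threshold with a pseudocount of 0.1 FPKM (0.0582), EDAR under quantile normalization (0.056), and EDAR and TNIP1 without the mean-variance trend (0.0643 and 0.0657). Without siPOU2F1 replicate 3 all 5 were called, with adjusted p from 0.00433 to 0.0144 (limma). So were TNFSF12, TNFRSF11B and TRAF1, with adjusted p from 0.00578 to 0.0311. In that fit 25.3% of 11814 tested genes were called, and the 5 had already been picked by their calls over all libraries. In the 3′ UTR, AACTGCA was in 1 copy in EDAR, HIPK3 and PEA15, and AGAATGA in 1 copy in HIPK3, PEA15, TNFSF15 and TNIP1. Each of the 5 lower genes in the lists held at least 1 of the words, as did 23.5% of all tested genes. The words had been picked from the fold changes of these libraries, so this is a description only. Their 3′ UTRs were also mostly long, at 764 bases in TNIP1 and 1890 to 5817 bases in the others. The median over all tested genes was 995 bases.

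**Figure D5:**
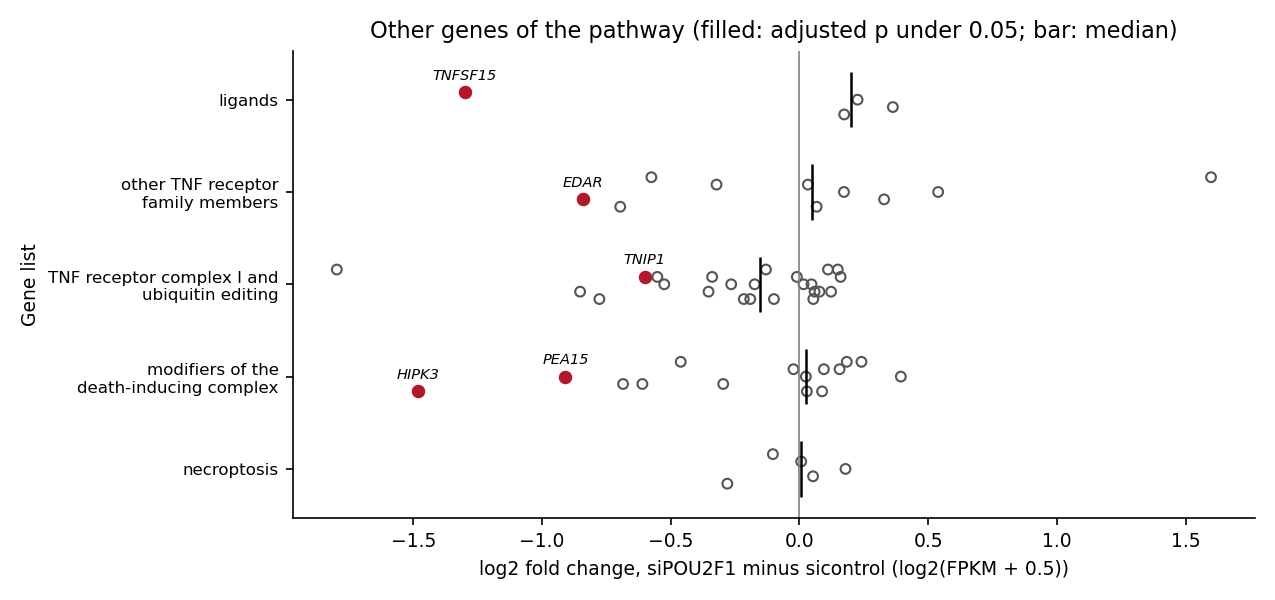
Log2 fold change, siPOU2F1 minus sicontrol on the log2(FPKM + 0.5) scale, of each tested gene in the 5 pathway lists, with a bar at each list's median. Filled points passed an adjusted p under 0.05: TNFSF15, EDAR, TNIP1, PEA15 and HIPK3, all to the left of 0.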

How the data were processed

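RNA was sequenced from 6 HCT116 libraries, 3 sicontrol and 3 siPOU2F1. Values are FPKM as the authors deposited them, with 1 file for each library. Tools listed in the submitters' processing notes, with no roles, are StringTie 2.1.2, HISAT2 2.0.4 and Bowtie2 2.2.5, with build hg38. The annotation release used and the strand setting were not stated there. Every file held 22782 features, of which the 20474 annotated genes were used (2308 assembled transcripts were not), and 20460 of their identifiers were in the table of gene names. FPKM carry no counts, so depth is unknown. No pair of libraries held identical values.

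Genes averaging 1 FPKM or more over the libraries entered limma 3.58.1 (R 4.3.3) as log2(FPKM + 0.5). The model held the group alone, the variance prior followed the mean, and p-values were adjusted by Benjamini-Hochberg across every tested gene. The procedure was run on simulated data with independent noise in each gene. Those data lack the differences between libraries that many genes share here, so they do not show how it performs on these libraries. Leave-out fits apply the minimum to the libraries left. Alternatives changed the pseudocount, the minimum, the scaling, the trend, the weights, the replicate block or the libraries. Python 3.11.15, pandas 2.3.3, scipy 1.17.1, numpy 2.4.6 and matplotlib 3.10.9 were used.

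Named genes are the 10 members, POU2F1, the called genes of the lists and the 2 with the lowest p in each, and the 3 nearest profiles to TNFRSF10B and CASP8. Members and lists were chosen with earlier results of these data known. Positions, overlaps and 3′ UTRs (at least 20 bases, after the stop codon, from the basic transcript with the longest coding sequence) came from GENCODE release 29. One further list of pathway genes is not reported here.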

Additional observations from a re-analysis of the deposited data

How the results depend on the processing

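The count of 0 called among the 10 genes held in 13 of 15 alternatives and was 5 with library weights (TNFRSF10A, TNFRSF10B, FAS, TNFRSF1A and CASP8; 50.4% of all tested genes were called there) and 3 without siPOU2F1 replicate 3, so it ranged from 0 to 3 over the fits that left out 1 library. The count over all genes was 72 with no minimum mean, 93 without the mean-variance trend, 5963 with library weights and 0 with the replicate block (limma; 1208 genes at an unadjusted p under 0.05), and from 0 to 2990 when 1 library was left out. The replicate numbers do not mark pairs that the labels explain, and deviations of same-numbered libraries correlated at 0.133, -0.545 and -0.512, so the block is given only here; TNFRSF10B had an adjusted p of 0.347 under it, and the calls of TNFSF15, EDAR, TNIP1, PEA15 and HIPK3 were lost (0.291 to 0.333). Of 149 alternative values of the 10 genes, 139 kept their direction and side of the threshold, 8 passed it newly and 2 changed sign: TNFRSF10D was 0.025 with library weights and FADD was 0.03 without siPOU2F1 replicate 2 (-0.42 to 0.03 over the fits without 1 library). CD68 changed sign with library weights (-0.026) and between -0.074 and 0.126 when 1 library was left out. Of the alternatives for POU2F1, 7 of 14 lost its call. The cause of these changes was not tested. Without counts, the precision of low genes such as CASP10 cannot be separated from depth.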
